A study of Homo sapiens with 8 samples.

Results

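Ribosome synthesis starts in the nucleolus, where RNA polymerase I transcribes the ribosomal DNA into 1 long precursor RNA. Small nucleolar ribonucleoproteins (snoRNPs) modify that precursor, and processing factors cut, fold and assemble it into the small and the large ribosomal subunit. The genes for these factors are known to be transcribed together with cell growth, and MYC, a transcription factor, is known to drive many of them through the E-box CACGTG. The 49 genes described here were listed by name for these roles: 8 for polymerase I transcription, 6 for the box C/D snoRNPs and rRNA modification, 5 for the box H/ACA snoRNPs, 3 nucleolar chaperones, 3 RNA helicases, 12 small-subunit and 12 large-subunit factors. Of the 49, 43 had a probe set that names 1 gene alone, and these 43 were tested among 14162 genes. NOP56, DKC1, DDX18, BOP1, GNL3 and PPAN had none and were not analysed here. All 43 lay above the filter value of 60.0 on all 8 arrays, with a lowest signal of 69.0, so none entered through the group in which it was high.

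Expression was measured on 8 arrays in HEL cells, as both arms are labelled. HEL is an erythroleukaemia line of human origin, known for its activating JAK2 mutation. CEP701 (lestaurtinib), an inhibitor of JAK2 and FLT3, was given at 0.5 µM for 16 h to the cells of 2 arrays, and the cells of 2 arrays got DMSO. PRMT5, which methylates arginines on histones and other proteins, was knocked down on 2 arrays in a stable line made with a pLKO lentivirus that carries 1 shRNA, and 2 arrays came from cells with a scramble control in pLKO. All cells grew in RPMI medium with fetal bovine serum, and the labels do not say whether a stable line was a pool or a clone, or whether replicates were separate cultures, so the p-values speak only of the spread among these 8 arrays, which may be technical. Values are MAS5 signals on a linear scale, and differences are on the scale of log2(signal + 10), in which a gene with a low signal shows less change than it had.

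The drug arm and the shRNA arm stood apart. Across 14162 genes, replicate arrays correlated with r of 0.964 to 0.978, arrays of different groups in the same arm with 0.954 to 0.972, and arrays of different arms with only 0.804 to 0.845 (Pearson). Of 8 erythroid and megakaryocyte markers, the 5 with a probe set were above the filter value on all 8 arrays, with summed signals of 18265 to 23237. Of 6 monocyte and granulocyte markers, 5 or 6 were above it in the shRNA arm, against 2 or 3 in the drug arm, with sums of 40196 to 68282 against 5380 to 9108. MPO, the myeloid enzyme myeloperoxidase, had signals of 10913 to 20593 in the shRNA arm, against 4.13 to 63.5 in the drug arm. The 4 epithelial markers summed to 1116 to 5415 in the shRNA arm, against 116 to 248 in the drug arm. Of the 4, 2 to 4 were above the filter value in the shRNA arm, against 1 in the drug arm. The higher sums came from EPCAM and CDH1. KRT8 had 42.3 to 95.1 in the shRNA arm, against 69.8 to 201 in the drug arm, and KRT5 at most 71.1 on any array. Lymphocyte and fibroblast sums were at most 557 and 622 on any array. The ratio of 5′ to 3′ actin probe sets, a measure of RNA integrity, was 0.116 and 0.161 with CEP701, 0.199 and 0.198 with DMSO, 0.187 and 0.335 with PRMT5 shRNA, and 0.141 and 0.179 with scramble. Both arms carry the HEL label, and whether they hold the same cells was not tested. The values set across the arms, scramble minus DMSO and the difference of effects, include any such difference. In bulk RNA such as this, fewer cells of a type and less RNA per cell cannot be told apart.

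The core promoters shown here are those of the 3 genes that passed the test with CEP701 (POLR1G, UTP18 and DDX21), of RRP9 and MRTO4, whose CEP701 differences were the lowest among the genes that did not pass, and of RRN3, whose difference lay near 0. They run from 250 bases before to 50 bases after the RefSeq start site (GRCh38.p14), 5′ to 3′ on the gene's own strand. The E-box CACGTG, the ETS motif CCGGAAG (or its reverse CTTCCGG) and the NRF1 motif are in capitals. The intervals are chr19:45406394-45406693 (plus strand) for POLR1G, chr17:51260296-51260595 (plus) for UTP18, chr10:68955920-68956219 (plus) for DDX21, chr1:19251555-19251854 (plus) for MRTO4, chr3:51941855-51942154 (minus) for RRP9 and chr16:15094286-15094585 (minus) for RRN3.
POLR1G: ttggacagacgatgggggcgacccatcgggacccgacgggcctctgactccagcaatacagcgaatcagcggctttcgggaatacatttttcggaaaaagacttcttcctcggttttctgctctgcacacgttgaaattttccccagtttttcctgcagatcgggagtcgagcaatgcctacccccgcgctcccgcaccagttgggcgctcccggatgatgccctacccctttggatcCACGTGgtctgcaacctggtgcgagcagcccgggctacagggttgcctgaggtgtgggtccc
UTP18: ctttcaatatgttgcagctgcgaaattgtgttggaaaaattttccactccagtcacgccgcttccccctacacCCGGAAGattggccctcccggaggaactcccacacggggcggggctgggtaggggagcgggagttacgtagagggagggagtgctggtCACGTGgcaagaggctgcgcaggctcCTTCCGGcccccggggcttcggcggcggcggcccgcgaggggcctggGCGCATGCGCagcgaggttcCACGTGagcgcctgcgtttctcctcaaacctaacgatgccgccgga
DDX21: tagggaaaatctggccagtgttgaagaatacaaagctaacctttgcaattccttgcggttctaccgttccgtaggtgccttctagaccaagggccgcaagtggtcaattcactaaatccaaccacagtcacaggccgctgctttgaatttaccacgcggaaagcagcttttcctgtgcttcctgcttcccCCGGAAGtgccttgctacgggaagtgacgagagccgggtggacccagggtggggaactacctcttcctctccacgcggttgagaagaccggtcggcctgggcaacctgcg
MRTO4: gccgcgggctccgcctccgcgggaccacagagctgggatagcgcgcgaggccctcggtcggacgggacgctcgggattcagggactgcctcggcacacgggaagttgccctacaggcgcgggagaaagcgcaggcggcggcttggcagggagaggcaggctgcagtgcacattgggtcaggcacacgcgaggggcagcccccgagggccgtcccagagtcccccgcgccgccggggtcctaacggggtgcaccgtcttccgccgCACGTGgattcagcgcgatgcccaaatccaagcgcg
RRP9: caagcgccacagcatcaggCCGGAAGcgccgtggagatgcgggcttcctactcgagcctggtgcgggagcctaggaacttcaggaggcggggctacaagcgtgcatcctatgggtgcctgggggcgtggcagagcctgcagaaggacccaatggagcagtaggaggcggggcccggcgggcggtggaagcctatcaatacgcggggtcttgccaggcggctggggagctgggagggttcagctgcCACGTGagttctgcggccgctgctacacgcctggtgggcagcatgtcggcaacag
RRN3: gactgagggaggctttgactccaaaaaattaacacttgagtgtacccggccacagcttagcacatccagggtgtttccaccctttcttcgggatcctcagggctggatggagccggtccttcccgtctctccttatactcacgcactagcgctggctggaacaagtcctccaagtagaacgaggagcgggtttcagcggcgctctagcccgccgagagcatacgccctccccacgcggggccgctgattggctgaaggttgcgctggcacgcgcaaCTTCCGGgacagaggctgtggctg

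With position 1 at the start site, the E-box began at -12 in POLR1G, at -89 and 5 in UTP18, at -5 in RRP9 and at 15 in MRTO4. DDX21 and RRN3 held no E-box in this window. An ETS motif began at -60 in DDX21, at 27 in RRN3, at -177 and -63 in UTP18 and at -231 in RRP9. The NRF1 motif, the 10 capitals that begin at -16 in UTP18, was searched in the same way on both strands. No motif overlapped another in these windows.

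RefSeq gave a promoter for 36 of the 43 tested genes. The E-box lay in 15 of the 36 (41.7%), against 9.78% of the promoters of 11368 tested genes and 7.43% of all 27305 promoters. The ETS motif lay in 14 (38.9%), against 17.9% and 10.7%, and the NRF1 motif in 2 (5.56%), against 2.17% and 1.36%. Of the 17 E-boxes in these promoters, 14 began within 40 bases of the start site. In the promoters of 78 other ribosome synthesis genes, the E-box lay in 29.5%, the ETS motif in 48.7% and the NRF1 motif in 2.56%. The median CEP701 difference was -0.75 in the 15 genes with an E-box and -0.41 in the 21 without, and -0.64 in the 14 genes with an ETS motif and -0.47 in the 22 without. These shares and medians are descriptions of letters in a window, and binding by any factor was not measured.

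The knockdown itself was checked first. PRMT5 had signals of 664 and 315 with PRMT5 shRNA, against 1794 and 984 with scramble. Both knockdown arrays were lower than both scramble arrays, and within each replicate pair the knockdown array was the lower. The difference of -1.52 (SE 0.35) had an adjusted p of 0.217 by limma and of 8.91e-05 with the replicate block, which pairs the shRNA arrays that share a suffix in their titles. In the drug arm PRMT5 had signals of 3023 and 2750.1 with CEP701, against 3419 and 3221 with DMSO (difference -0.20, adjusted p = 0.766).

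The first comparison asked what the kinase inhibitor changed. With CEP701, 3 of the 43 genes fell and 0 rose at an adjusted p under 0.05 by limma, and 14 were lower and 0 higher at an unadjusted p under 0.05. Over all 14162 genes tested, 2.04% fell and 3.74% rose at the adjusted p. At the unadjusted p, 1307 of them were lower and 2093 higher. The 3 were POLR1G of RNA polymerase I, the helicase DDX21 and the small-subunit factor UTP18. The sign was more uniform than the calls: 41 of 43 differences were below 0, against 41.9% of all genes. In 34 genes both CEP701 arrays lay below both DMSO arrays, against 25.7% of all genes, and in 1 gene, POLR1E, both lay above, against 36.3%. The median difference was -0.48, against 0.10 over all genes.

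How many of these differences passed depended on how the spread was estimated. All 8 arrays share 1 estimate of the spread, and the median within-group SD (log2) of the 43 genes was 0.10 in the drug arm and 0.48 in the shRNA arm, against 0.17 and 0.27 over all genes. With the replicate block in the shRNA arm, 25 of the 43 fell and 0 rose, against 9.71% and 12.6% of all genes. With the arms fitted separately 27 fell, against 10.1% of all genes. In the other direction, none of the 43 passed when any 1 of the 4 drug-arm arrays was left out, and only 5 to 14 of all 14162 genes fell in those fits. After quantile normalization only POLR1G passed, with 174 falls over all genes. Over all genes, CEP701 gave 530 rises and 289 falls in the deposited scaling, 348 and 474 after median scaling, and 80 and 908 after scaling to the poly-A control RNAs, which moved the median of all genes to -0.39. The median of the 43 genes minus that of all genes was -0.58 in the deposited scaling, which scaling an array by 1 factor hardly alters, and -0.50 after quantile normalization.

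**Figure D1:**
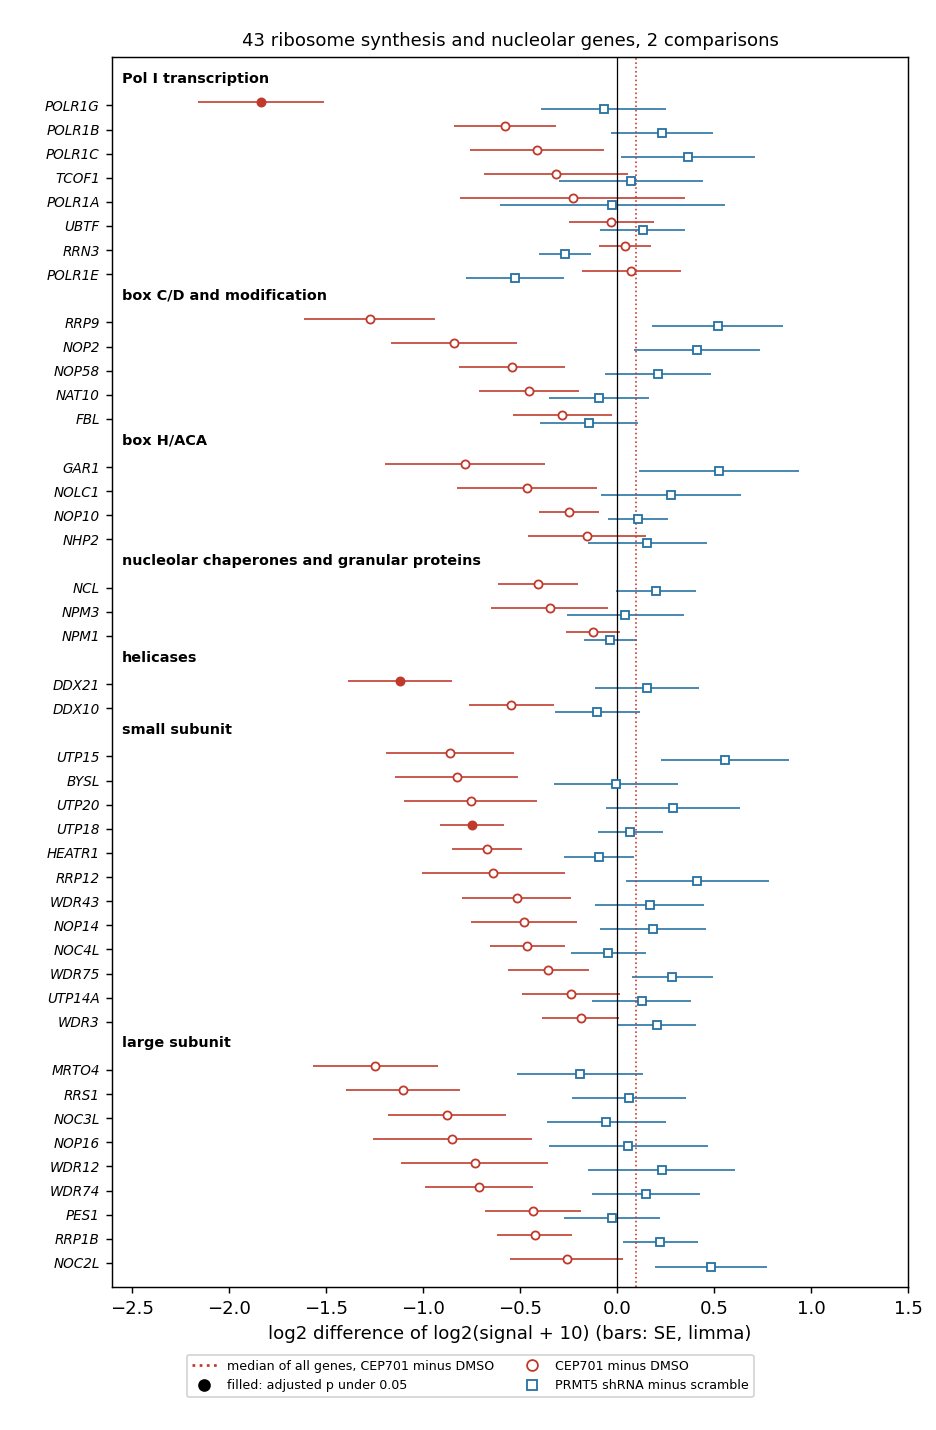
Log2 differences of the 43 tested genes by role, for CEP701 minus DMSO (circles) and PRMT5 shRNA minus scramble (squares), with bars for the SE from limma and 2 arrays per group. The filled symbols, POLR1G, DDX21 and UTP18, passed an adjusted p of 0.05. Nearly all circles lie left of 0, while 29 of 43 squares lie right of it.

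Polymerase I itself gave the widest range of any role. POLR1G, a subunit found only in polymerase I, had signals of 368 and 411 with CEP701, against 1391 and 1433 with DMSO. The groups were far apart, the means being 389 ± 31.0 and 1412 ± 29.4 (SD, n = 2 each). The difference was -1.83 (SE 0.32, 95% interval -2.56 to -1.11), or 3.56-fold lower, with an adjusted p of 0.0175. It passed in 17 of 22 alternative settings. POLR1E, the partner of POLR1G in the polymerase I heterodimer, had 554 and 538 with CEP701, against 524 and 511 with DMSO (difference 0.08, adjusted p = 0.888). Its sign turned with the scaling and was below 0 after quantile, median and poly-A scaling. It also turned with the probe set: the mean of its 3 probe sets gave -0.67 (adjusted p = 0.238).

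POLR1B, a large catalytic subunit, had 2402 and 2314 with CEP701, against 3525 and 3514 with DMSO, with no overlap (difference -0.58, SE 0.26, adjusted p = 0.216, and 0.00527 with the replicate block). POLR1C, which polymerase III shares, differed by -0.41 (SE 0.34, adjusted p = 0.506, blocked 0.0492). POLR1A, the other large catalytic subunit, had 291 and 589 with CEP701, against 521 and 455 with DMSO, and the drug arrays spanned the vehicle arrays. The initiation factor RRN3, known as a target of growth-signalling kinases, had 3758 and 3591 with CEP701, against 3549 and 3593 with DMSO, a difference of 0.04 (95% interval -0.26 to 0.34) that lay below 0 after median and poly-A scaling. UBTF, which binds ribosomal DNA, gave -0.03 (95% interval -0.52 to 0.46), and TCOF1, its nucleolar partner, -0.31 (95% interval -1.15 to 0.52). The further UBTF probe sets above the filter were lower, at -0.56 without overlap, and at -0.46 and -0.39 with overlap. Of the 8 polymerase I genes, 1 fell (2.04% of all genes) and 6 had a difference below 0 (41.9%). The median was -0.27, against 0.10 over all genes.

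In the box C/D and modification group, 5 of 5 tested genes had both CEP701 arrays below both DMSO arrays, against 25.7% of all genes. Of them 0 passed, while 2.04% of all genes fell. At an unadjusted p under 0.05, 2 were lower, against 1307 of all 14162 genes. RRP9, which binds the U3 snoRNA, had 221 and 203 with CEP701, against 544 and 509 with DMSO. That is 2.42-fold lower (difference -1.27, SE 0.34) with an adjusted p of 0.0588, just above the threshold, and of 0.00573 with the replicate block. NOP2, a methyltransferase of the large rRNA, had 948 and 1139 with CEP701, against 1840.1 and 1899 with DMSO (difference -0.84, SE 0.32, adjusted p = 0.153, blocked 0.00259). The core proteins NOP58 and fibrillarin (FBL) and the rRNA acetyltransferase NAT10 gave -0.54, -0.28 and -0.45. Of these, NOP58 and NAT10 passed with the block (adjusted p = 0.004 and 0.0271).

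In the box H/ACA group, whose particles guide pseudouridylation, 0 of 4 tested genes passed (0 also at an unadjusted p under 0.05). GAR1, a core protein, had 2004 and 2061 with CEP701, against 3606 and 3404 with DMSO. The drug arrays were clearly apart, yet the adjusted p was 0.28 (difference -0.78, SE 0.41) and became 5.86e-04 with the replicate block. NOP10, another core protein, had 19312 and 17359.8 with CEP701, against 21109 and 22346 with DMSO (difference -0.25, adjusted p = 0.365). NOLC1, a chaperone of snoRNPs, gave -0.46 (adjusted p = 0.471, blocked 0.0172). NHP2 gave -0.15, and its groups overlapped.

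Of the nucleolar chaperones 0 of 3 passed by limma (0 also at an unadjusted p under 0.05, and 0 with the block). Nucleolin (NCL) had 14851 and 21781 with CEP701, against 22449.9 and 25250.0 with DMSO, so 1 drug array lay close to the vehicle arrays (difference -0.40, adjusted p = 0.267). A second NCL probe set near the filter value gave 0.67, and the mean of both turned the sign to 0.13. NPM3 had 2688 and 2285 with CEP701, against 2997 and 3320.0 with DMSO (difference -0.35, adjusted p = 0.522). Nucleophosmin (NPM1) had 41502 and 41826 with CEP701, against 41019 and 50193 with DMSO, with overlap and a difference of -0.12 (95% interval -0.43 to 0.19).

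Among the helicases, DDX21, which acts in rRNA transcription and processing, had 9421 and 10526 with CEP701, against 20660.3 and 22635 with DMSO. Its means were 9974 ± 781 and 21648 ± 1396 (SD, n = 2 each), a 2.17-fold fall (difference -1.12, SE 0.27, adjusted p = 0.0439). It passed in 14 of 22 alternative settings. A second DDX21 probe set had 6734 and 7361 with CEP701, against 12035 and 13086 with DMSO, a difference of -0.83. DDX10, a helicase of small-subunit rRNA processing, had 2040.0 and 2193 with CEP701, against 3011 and 3174 with DMSO (difference -0.55, SE 0.22, adjusted p = 0.168, blocked 0.0134).

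**Figure D2:**
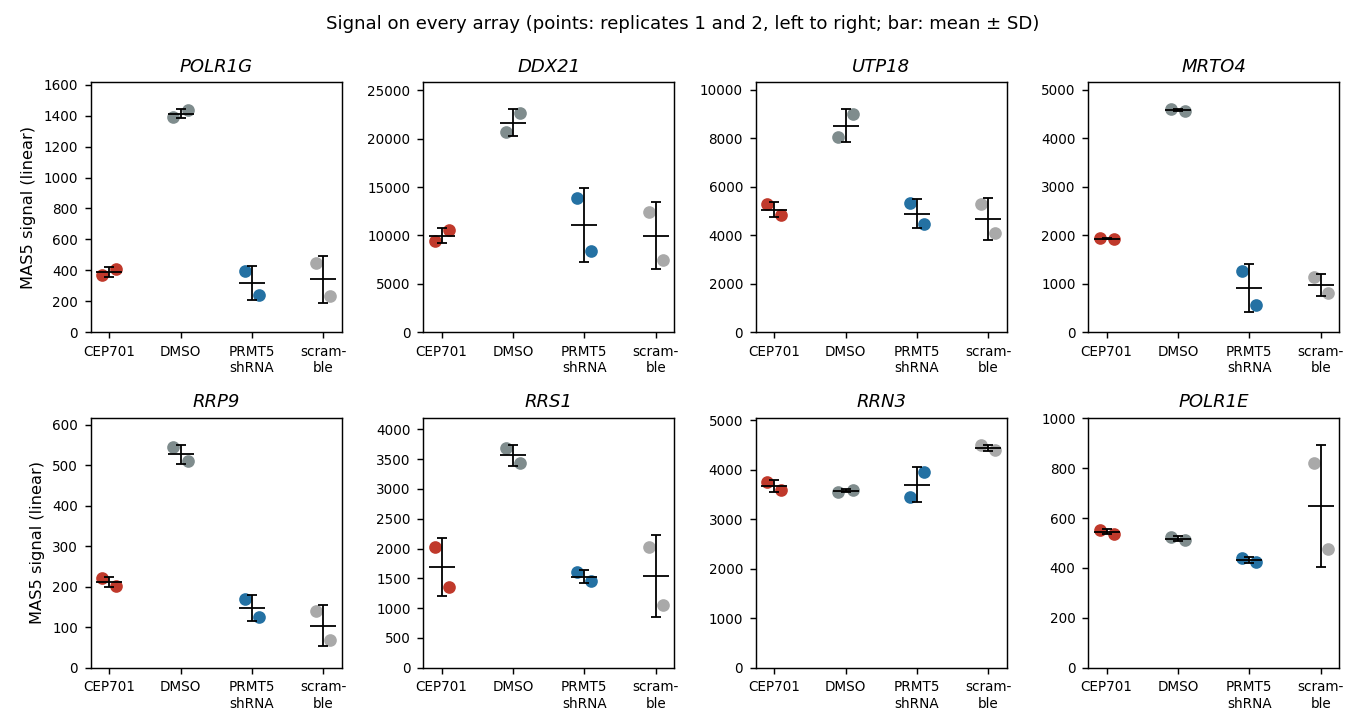
MAS5 signals of 8 genes on each array (points, replicate 1 left of replicate 2) with the mean and SD of each group (bars, n = 2), on linear axes from 0. For POLR1G, DDX21, UTP18, MRTO4, RRP9 and RRS1 the DMSO arrays stand above the 6 other arrays, which is not so for RRN3 and POLR1E.

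In 12 of 12 small-subunit factors both CEP701 arrays lay below both DMSO arrays, against 25.7% of all genes. The same held for the 5 box C/D genes and the 2 helicases. Of the 12, 1 fell (2.04% of all genes), against 7 with the replicate block (9.71% of all genes), and the median was -0.58. UTP18, of the processome that assembles on the nascent precursor, had 5283 and 4833 with CEP701, against 8026 and 8993 with DMSO. The means were 5058 ± 318 and 8509 ± 683 (SD, n = 2 each), 1.68-fold lower (difference -0.75, SE 0.17, adjusted p = 0.0359), and it passed in 15 of 22 alternative settings. HEATR1, also of the processome and known to be needed for polymerase I transcription, had 2191 and 1808 with CEP701, against 3067 and 3278 with DMSO. Its difference of -0.67 (SE 0.18) had an adjusted p of 0.0612, and of 0.00297 with the replicate block. UTP15, which belongs to the same subcomplex, had 428 and 344 with CEP701, against 676 and 734 with DMSO (difference -0.86, adjusted p = 0.15, blocked 0.0102). WDR75 and WDR43, 2 further members of that subcomplex, gave -0.35 and -0.52, and WDR43 passed with the block (adjusted p = 0.00733). The other 7 gave differences below the median of all genes: BYSL (-0.83), UTP20 (-0.75), RRP12 (-0.64), NOP14 (-0.48), NOC4L (-0.46), UTP14A (-0.24) and WDR3 (-0.19). With the block BYSL, UTP20 and RRP12 passed (adjusted p = 0.00347, 0.00727 and 0.047).

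The large-subunit factors had the lowest median of the roles with over 2 tested genes, -0.73. In all, 9 of 9 were below 0 and 7 of 9 lower without overlap, against 41.9% and 25.7% of all genes. Of them 0 passed, while 2.04% of all genes fell. At an unadjusted p under 0.05, 4 were lower, against 1307 of all 14162 genes. MRTO4, which acts in assembly of the ribosomal stalk, had 1935 and 1918 with CEP701, against 4592 and 4560.2 with DMSO. The replicates were close and the groups 2.37-fold apart, and the adjusted p was 0.0556 (difference -1.24, SE 0.32), or 3.33e-04 with the replicate block. RRS1, an assembly factor of the large subunit, had 2028 and 1351 with CEP701, against 3691 and 3440.4 with DMSO (difference -1.10, SE 0.29, adjusted p = 0.0591, blocked 0.00343). PES1 and WDR12, partners in a complex of large-subunit rRNA processing, gave -0.43 and -0.73, with an adjusted p of 0.035 and 9.91e-04 in the fit with the block. NOC3L, NOP16, WDR74, RRP1B and NOC2L gave -0.88, -0.85, -0.71, -0.42 and -0.26, and the last 2 of these had overlapping groups. The other 3 passed with the block (adjusted p = 4.88e-04 for NOC3L, 0.00704 for NOP16 and 0.012 for WDR74).

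Other probe sets of these genes pointed mostly the same way. Of 37 further probe sets above the filter, in 21 genes, 28 were lower with CEP701 and 18 without overlap, with a median of -0.35. Over all genes, at 1 probe set per gene, 41.9% were below 0, and 25.7% lay lower and 36.3% higher without overlap. Further probe sets of POLR1B (0.16), NCL (0.67) and NOC2L (1.57) were higher without overlap. That of NOC2L had 147 and 130 with CEP701, against 114 and 10.0 with DMSO, and that of NCL lay near the filter value. For POLR1A, the 2 further probe sets gave -0.58 and -0.72 without overlap, where the tested one gave -0.23 with overlap.

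The second comparison asked what knockdown of PRMT5 changed. With PRMT5 shRNA, 0 of 43 genes rose and 0 fell by limma, and 0 passed even an unadjusted p under 0.05. Over all genes 0.00706% rose and 0.141% fell at the adjusted p. At the unadjusted p, 338 of all 14162 genes were higher and 610 lower. The median difference was 0.13, against 0.00 over all genes, with 29 of 43 above 0, against 50.5% of all genes. With the mean of probe sets the median was 0.0789. Of the 37 further probe sets above the filter, 16 were lower with PRMT5 shRNA, and their median was 0.04. The groups did not overlap in 3 genes, with RRP1B higher (14.1% of all genes) and POLR1E and RRN3 lower (16.1%). The median depended on single arrays: it was -0.19 without PRMT5 shRNA replicate 1, -0.17 without scramble replicate 2, 0.40 without PRMT5 shRNA replicate 2 and 0.46 without scramble replicate 1.

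With the shRNA arrays that share a title suffix taken as pairs, each gene can be read within its pair. That pairing is inferred from the titles. The knockdown array was higher in both pairs for 22 genes, against 30.1% of all genes, and lower in both for 5, against 29.4%, and the median within pair 1 and within pair 2 was 0.14 each. With the replicate block, 1 of the 43 rose and 0 fell, against 0.318% and 1.43% of all genes. This was GAR1, with 3574 and 1640.3 with PRMT5 shRNA, against 2598 and 1082 with scramble. The knockdown array was the higher in either pair (0.46 and 0.60), for a difference of 0.53 (adjusted p = 0.884, and 0.0339 with the block). With the block in both arms, 0 passed.

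The other genes with the lowest p in each role were as follows. UTP15 had 458 and 266 with PRMT5 shRNA, against 313 and 175 with scramble, the highest difference of the 43 (0.56, SE 0.33, adjusted p = 0.821). RRP9 had 170.3 and 124 with PRMT5 shRNA, against 139 and 69.0 with scramble (0.52, adjusted p = 0.84). Both were higher in either pair, while replicate 1 of scramble lay above replicate 2 of PRMT5 shRNA. NOP2 had 764 and 440.2 with PRMT5 shRNA, against 597 and 313 with scramble (0.41, adjusted p = 0.885). NOLC1 had 7484 and 3420.2 with PRMT5 shRNA, against 5689 and 3052 with scramble (0.28, adjusted p = 0.958). For NOP2 and NOLC1, too, the knockdown was higher within each pair and the groups overlapped.

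POLR1E had 439.5 and 424 with PRMT5 shRNA, against 823 and 474 with scramble, the lowest difference of the 43 (-0.52, SE 0.25, 95% interval -1.09 to 0.05, adjusted p = 0.775). Scramble replicate 1 lay far above the other 3 arrays, and the mean over its probe sets gave 0.08. RRN3 had 3450.0 and 3948 with PRMT5 shRNA, against 4489 and 4398 with scramble (-0.27, 95% interval -0.57 to 0.03, adjusted p = 0.775). These were the 2 genes with both PRMT5 shRNA arrays below both scramble arrays.

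NCL had 17585 and 13891 with PRMT5 shRNA, against 15348 and 12031 with scramble (0.20, adjusted p = 0.924). NPM1 gave -0.03 (95% interval -0.34 to 0.28), with 43972 and 37034 with PRMT5 shRNA, against 41680.2 and 40916 with scramble. The nucleolar chaperones thus overlapped between the groups, as did both helicases. DDX21 had 13824 and 8388 with PRMT5 shRNA, against 12433 and 7514 with scramble (0.16, adjusted p = 0.972), and DDX10 had 1341 and 831 with PRMT5 shRNA, against 1232 and 1042 with scramble (-0.10, adjusted p = 0.977). WDR75 had 1697 and 1197 with PRMT5 shRNA, against 1352 and 1007 with scramble (0.29, adjusted p = 0.871). RRP1B, a nucleolar protein of late large-subunit rRNA processing, had 9546 and 10846 with PRMT5 shRNA, against 8209 and 9240.3 with scramble, with no overlap (0.22, adjusted p = 0.9). NOC2L had 403 and 337 with PRMT5 shRNA, against 348 and 194 with scramble (0.49, adjusted p = 0.823), and its groups overlapped. The 3 genes that fell with CEP701 gave -0.07 (POLR1G, 95% interval -0.79 to 0.66), 0.16 (DDX21, 95% interval -0.44 to 0.75) and 0.07 (UTP18, 95% interval -0.30 to 0.44) with PRMT5 shRNA.

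**Figure D3:**
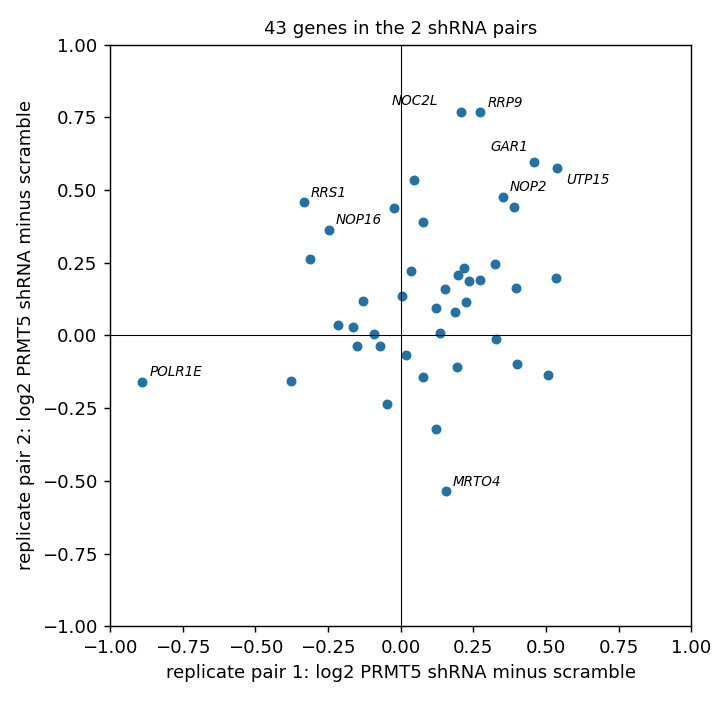
Log2 difference of PRMT5 shRNA minus scramble within replicate pair 1 (x axis) and pair 2 (y axis) for the 43 genes, 1 point per gene. In the upper right quadrant lie 22 genes and in the lower left 5, and POLR1E has the lowest value of pair 1.

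The effects were set against each other in 1 contrast, the CEP701 effect minus the PRMT5 shRNA effect. The difference of effects was below 0 for 41 of 43 genes, against 43.2% of all genes, with a median of -0.69 and 0.11 over all genes. None of the 43 passed by limma, with 11 below 0 at an unadjusted p under 0.05, and of all genes 0.325% passed below 0 and 1.11% above. At the unadjusted p, 1097 of all 14162 genes were below 0 and 1717 above. With the replicate block 23 of 43 passed, all below 0, against 7.94% of all genes. The count of 0 became 10 without scramble replicate 1 (341 below 0 over all genes) and 3 without PRMT5 shRNA replicate 2 (186 over all genes). The lowest was RRP9 (-1.79, adjusted p = 0.0954, blocked 0.00808), followed by POLR1G (-1.77, adjusted p = 0.09, blocked 0.00103). The highest was POLR1E (0.60, adjusted p = 0.388, blocked 0.171), which turned to -0.75 with the mean of its probe sets. Over all genes, the passing counts were 157 above and 46 below 0, and 22 and 24 after poly-A scaling.

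The replicates of the shRNA arm differed more for these genes than the knockdown did. In replicate 2, 40 of 43 genes were lower than in replicate 1 with PRMT5 shRNA (47.6% of all genes), and 41 with scramble (49.7%). The median differences were -0.68 and -0.71, against 0.03 and 0.00 over all genes. The same 40 genes were lower in both groups (32.3% of all genes), and 39 had both replicate 2 arrays below both replicate 1 arrays (25% of all genes). In the drug arm 24 were lower in replicate 2 with CEP701 (49.9%) and 13 with DMSO (46.5%), with medians of -0.02 and 0.08. MYC moved with them: it had 9096 and 4146 in replicates 1 and 2 with PRMT5 shRNA, against 5852 and 3099 with scramble. The epithelial marker sum was 5415 and 1116 with PRMT5 shRNA, against 4993 and 1744 with scramble, and the monocyte and granulocyte sum 40196 and 68282 with PRMT5 shRNA, against 55553 and 64393 with scramble. The ratio of 5′ to 3′ actin probe sets, given above, was higher in replicate 2 of both groups. The part of MYC, these marker sums or RNA integrity in the differences was not tested.

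**Figure D4:**
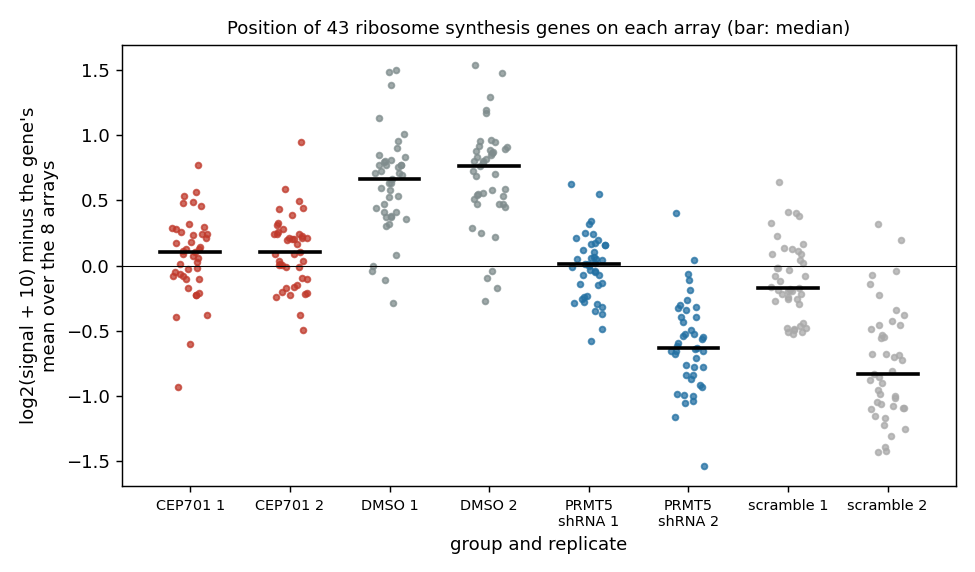
Position of each of the 43 genes on each array (points), as log2(signal + 10) minus the gene's mean over the 8 arrays, with the median of the genes as a bar. The medians are 0.10 and 0.10 with CEP701, 0.66 and 0.76 with DMSO, 0.01 and -0.63 with PRMT5 shRNA, and -0.17 and -0.83 with scramble.

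Between the control groups, scramble against DMSO, the median difference was larger than in either treatment. With scramble 31 of 43 fell and 0 rose, against 20.3% and 25.5% of all genes, and the median was -1.16, against 0.11 over all genes. With the replicate block in the shRNA arm 37 fell and 2 rose, against 3564 and 4236 of all 14162 genes. In 37 genes both scramble arrays lay below both DMSO arrays and in 2 above, against 33.2% and 40.8% of all genes, and 39 of 43 differences were below 0, against 45.4%. The largest falls were RRP9 (-2.30, 4.94-fold), MRTO4 (-2.24, 4.73-fold) and NOP2 (-2.09, 4.24-fold), with adjusted p of 4.86e-04, 4.45e-04 and 7.02e-04. The median was -1.56 without scramble replicate 1 and -0.81 without scramble replicate 2. Virus, selection, culture and the marker levels given above differ along with this contrast and cannot be told apart. Of the 43 genes, 39 had their highest group mean with DMSO, 27 their lowest with scramble, and 37 had a CEP701 mean between those of scramble and DMSO. This order rests on the same group means as the differences above, and it was not counted over all genes. Over all genes, 3608 rose and 2878 fell with scramble, against 3033 and 3117 after quantile, 2677 and 4063 after median and 1999 and 3636 after poly-A scaling.

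MYC itself had 14143 and 16081 with CEP701, against 18495 and 21672 with DMSO, with no overlap (difference -0.41, SE 0.36, adjusted p = 0.529, blocked 0.0242). With PRMT5 shRNA against scramble the difference was 0.53 (SE 0.36, adjusted p = 0.855, blocked 0.0427), on the values given above.

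Other genes of the pathway were counted from a list of 87, of which 83 were tested. With CEP701, 4 of 83 fell and 0 rose, 69 were below 0 and the median was -0.35. With the replicate block 34 of 83 fell and 2 rose. Over all genes, 2.04% fell and 3.74% rose by limma, and 9.71% and 12.6% with the block. Of all genes 41.9% were below 0, with a median of 0.10. EMG1, an rRNA methyltransferase of the small subunit, had 3617 and 3101 with CEP701, against 8431 and 8891 with DMSO (difference -1.37, adjusted p = 0.0262). RRP36 and UTP6, also of the small-subunit processome, gave -0.84 each (adjusted p = 0.0272 and 0.0484). Of 40 large-subunit genes 0 fell by limma (10 at an unadjusted p under 0.05, and 16 with the block), with a median of -0.36. Of 8 further polymerase I genes 0 fell (2 at an unadjusted p under 0.05, and with the block 2 fell and 1 rose), with a median of -0.01. With PRMT5 shRNA 0 of 83 passed (1 below 0 at an unadjusted p under 0.05), and the median was 0.09.

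**Figure D5:**
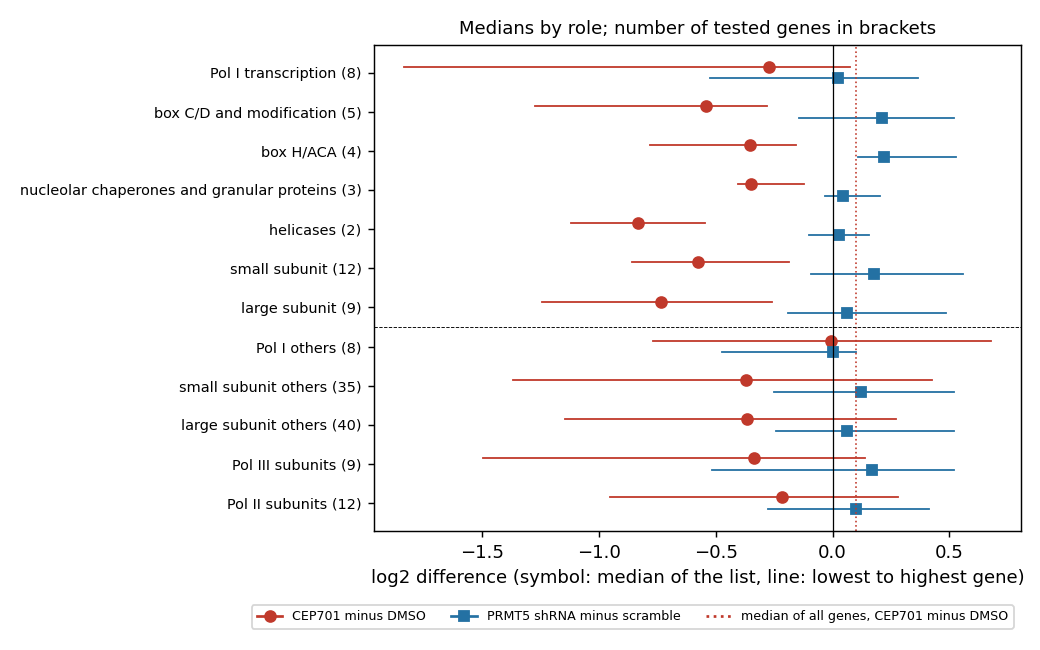
Median log2 difference (symbols) and range from the lowest to the highest gene (lines) for each role of the 43 genes (above the dashed line) and for other gene lists (below it), with the number of tested genes in brackets. For CEP701 minus DMSO (circles) the medians of the 7 roles run from -0.83 for the helicases to -0.27 for polymerase I transcription, and that of all genes is 0.10.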

How the data were processed

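Values were deposited as intensity, 1 linear signal per probe set and array for 54675 probe sets on 8 arrays, which the authors computed with the MAS5 algorithm of Affymetrix Expression Console, per the submitters' processing notes. Per the labels' protocols, 200 ng of total RNA was labelled with biotin. Each array's mean, with 2% of values trimmed at either end, was 500.1, and no other normalization was found. The number of arrays limits the precision.

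Probe sets were named from the platform annotation, with symbols updated through Entrez identifiers. Of them 41097 name 1 gene, 1801 several and 11777 none, and only the first were used. Probe sets were kept where at least 2 arrays exceeded 59.98, the overall median signal, with 1 probe set per gene (highest mean), giving 14162 genes. The values log2(signal + 10) of all 8 arrays entered 1 linear model with a term for each of the 4 groups, fitted by limma 3.58.1 (lmFit, trended eBayes; R 4.3.3) with 4 residual and 5.37 prior degrees of freedom. Tables were handled with pandas 2.3.3. Adjusted p-values are Benjamini-Hochberg values over all genes, called under 0.05. The calculation was tested on simulated data.

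The shRNA arrays share a title suffix by replicate, and arrays with the same suffix deviated together (r = 0.323 over genes). Results of the fit with a replicate block are therefore printed beside members and counts whose call they change. The drug arrays share only a number (r = -0.0115).

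The genes and lists were chosen with earlier results of these data known. Named genes are those that passed, the 2 of lowest unadjusted p per role in either treatment, the highest and lowest of each contrast, the 3 largest falls between the controls, PRMT5 and MYC. The remaining members are given with their CEP701 minus DMSO differences only. Of 22 alternatives tried, the closing section gives the effect. Promoters are from RefSeq (GRCh38.p14), and motifs were searched by exact letters on both strands.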

Additional observations from a re-analysis of the deposited data

How the results depend on the processing

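The count of ribosome synthesis genes that fell with CEP701, 3 of 43, depended most on the estimate of the spread. The falls over all genes, 289, moved along with it and follow each count in brackets. It was 27 with the arms fitted separately (1424), 25 with the replicate block in the shRNA arm (1375), 24 with the replicate block in both arms (1325) and 0 with no variance trend (36). It was 8 after poly-A control scaling (908), 7 after median scaling (474), 5 with 50 added to the signals (308), 2 with the mean of probe sets (190), 1 after quantile normalization (174) and 1 with no filter (158). Leaving out 1 drug-arm array gave 0 (5 to 14) and 1 shRNA-arm array 6 to 7 (474 to 488), so 0 to 7 in all. POLR1G, DDX21 and UTP18 were all 3 among the calls in 14 of the 22 settings. The median of the 43 genes was -0.97 after poly-A control scaling and -0.60 to -0.48 in the leave-one-out fits. No setting called a gene higher.

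For PRMT5 shRNA the median was -0.19 to 0.46 with 1 array left out, and the replicate block in the shRNA arm gave 1 gene higher. The replicate block changed no other member's call in this contrast. Single genes changed sign: POLR1E with CEP701 was -0.003 after quantile normalization, -0.0435 after median scaling, -0.42 after poly-A control scaling and -0.67 with the mean of probe sets. With the mean of probe sets POLR1E was 0.0789 with PRMT5 shRNA and -0.75 for the difference of effects, NCL was 0.13 with CEP701, and with PRMT5 shRNA NOC2L was -0.024 and NPM1 0.0346. NPM1 was 0.0092 after median scaling and 0.0033 after poly-A control scaling.

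With PRMT5 shRNA, differences of single genes with 1 array left out ran over both signs: NOP2 -0.0396 to 0.87, GAR1 -0.10 to 1.16, NOLC1 -0.28 to 0.84, NPM1 -0.16 to 0.0905, DDX21 -0.21 to 0.52, DDX10 -0.44 to 0.24 and MYC -0.0387 to 1.09. The cause of these changes was not tested.

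For the difference of effects the count of 0 became 23 with the replicate block in either form (1125 and 1027 over all genes) and 0 to 10 with 1 array left out, and its median was -1.22 after poly-A control scaling and -1.03 to -0.39 with 1 array left out. For scramble minus DMSO the median was -1.55 after poly-A control scaling and -1.56 to -0.81 with 1 array left out. The count of 31 genes lower became 37 with the replicate block in the shRNA arm (3564 over all genes) and 34 with the block in both arms (2727). It was 37 after median and after poly-A control scaling (4063 and 3636), 30 after quantile normalization (3117) and 27 with no variance trend (2483). The count of genes higher there was 2 with the replicate block in the shRNA arm, 1 with the block in both arms, 1 after quantile normalization and 0 to 1 with 1 array left out.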

Other observations

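The subunits of the other nuclear RNA polymerases were counted from fixed lists beside the polymerase I genes. With CEP701, 2 of 9 tested subunits of polymerase III, which makes 5S rRNA and tRNA, fell and 0 rose (3 and 0 with the replicate block in the shRNA arm), and the median was -0.34. POLR3K had 2036 and 1588 with CEP701, against 4877 and 5312 with DMSO (difference -1.50, adjusted p = 0.0117 by limma). POLR3G had 236 and 261 with CEP701, against 704 and 590.4 with DMSO (difference -1.34, adjusted p = 0.0482). Polymerase II makes messenger RNA and no ribosomal RNA, but some of its 12 subunits listed here also belong to polymerases I and III. Of the 12, 0 passed by limma (3 below 0 at an unadjusted p under 0.05, and 3 fell with the block). In 11 the difference was below 0, and the median was -0.22. Of all genes with CEP701, 2.04% fell and 3.74% rose by limma, and 9.71% and 12.6% with the block. The difference was below 0 in 41.9% of all genes, with a median of 0.10. With PRMT5 shRNA 0 of the 9 and 0 of the 12 passed (1 polymerase III subunit above 0 at an unadjusted p under 0.05), and the medians were 0.17 and 0.10. The lists were chosen with earlier results of these data known, so these counts are descriptions.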
